A study of Mus musculus with 8 samples.

Results

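The collagen genes were taken as every gene of the deposited count table whose symbol is Col, a number, a and a number. 44 of the 24980 genes in the table met this rule, and all 44 had enough counts to be tested. They were sorted by textbook class, with types V and VI put together, into 8 fibrillar genes, 9 genes of types V and VI, 9 genes of basement membranes, 9 genes of the FACIT class (fibril-associated collagens with interrupted triple helices), 4 transmembrane genes and 5 short-chain network and other genes. Type V, which starts fibrils, is thus left out of the fibrillar class, its shares and its medians. RNA was sequenced from mouse skeletal myogenic progenitors of 2 origins, each taken fresh and after expansion, with 2 biological replicates in each of 4 groups. Fresh teratoma-derived cells (TF) came from EGFP-labelled E14 embryonic stem cells that had formed teratomas in irradiated, cardiotoxin-injured muscle of NSG-mdx4Cv mice. These mice are immunocompromised and their muscles lack dystrophin. The study's methods describe sorting for EGFP, alpha7-integrin and VCAM-1 and against CD31 and CD45. Expanded teratoma-derived cells (TE) were the same kind of cell at passage 8. Fresh satellite cells (SF), the resident stem cells of muscle, came from adult muscle, and expanded satellite cells (SE) were at passage 8. Expanded cells had grown on gelatin-coated wells in a medium that favours proliferation. E14 is 1 embryonic stem cell line, and the strain, age and sorting of the satellite cell donors are not given in the sources used here.

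Collagens are the main structural proteins of the extracellular matrix. Each molecule is a triple helix of chains encoded by separate genes, rich in glycine and in proline that is hydroxylated inside the endoplasmic reticulum. Fibrillar collagens (types I, III and others) form the tension-bearing fibrils of connective tissue, type IV forms the sheet-like network of the basement membrane that wraps each muscle fibre and lies against the satellite cell, type V starts fibrils, and type VI forms beaded filaments around cells, which satellite cells are known to need in their niche. FACIT collagens coat fibrils, transmembrane collagens span the plasma membrane, and short-chain collagens form small networks.

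Collagen transcripts made up a large share of the RNA of fresh teratoma-derived cells and a small share of that of the other 3 groups. Collagen genes held 7.07% and 7.58% of all estimated counts in the TF libraries, 0.544% and 0.562% in TE, 0.803% and 1.16% in SF, and 0.533% and 0.527% in SE. No library of one group overlapped another group. The mean share in TF was 7.33% ± 0.360 (SD, n = 2), 13.2-fold that of TE (0.553% ± 0.0133) and 7.48-fold that of SF (0.980% ± 0.250). The mean in SF was 1.85-fold that of SE (0.530% ± 0.00438), and TE and SE differed by 1.04-fold. With 2 libraries a group, the smallest two-sided p an exact permutation test can give is 0.333, which each of these 4 comparisons reached. Exact (Clopper-Pearson) 95% binomial intervals of the shares had half-widths of at most 0.0149 percentage points and cover counting error only.

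**Figure D1:**
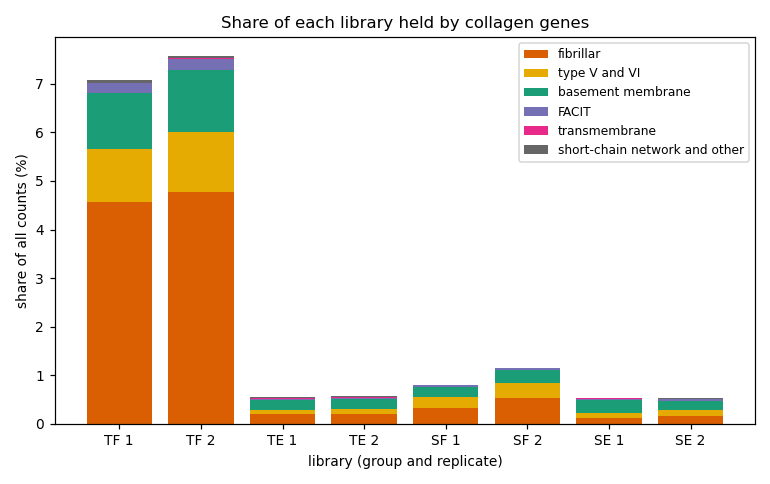
Share of all estimated counts held by collagen genes in each of the 8 libraries (vertical axis, percent), stacked by class. The TF bars reach 7.07% and 7.58% and are mostly fibrillar, and the other 6 bars lie between 0.527% and 1.16%.

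The make-up of this share also differed between groups. Fibrillar genes held 64.5% and 62.8% of the collagen counts in TF, 36.0% and 36.7% in TE, 40.7% and 46.6% in SF, and 23.8% and 30.9% in SE. Basement membrane genes held 16.4% and 17.0% in TF, 37.0% and 36.2% in TE, 25.6% and 22.5% in SF, and 50.6% and 37.0% in SE. In both origins the fibrillar part of the collagen counts was thus smaller, and the basement membrane part larger, in each expanded library than in each fresh one of that origin. Col3a1, Col1a2 and Col1a1 were the 3 leading genes of both TF libraries. Col1a2, Col4a1 and Col3a1 led in both TE libraries. Col18a1, Col3a1 and Col4a1 led in both SE libraries, with Col18a1 first in SE 1 at 24.7% of collagen counts. Estimated counts were not divided by gene length for these shares, so long transcripts weigh more in them.

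All 44 genes had at least 10 estimated counts in both TF libraries and 41 had so in both SF libraries, against 29 in TE and 30 in SE. 25 genes passed this mark in all 4 groups. 11 genes passed it in TF or SF and in neither expanded group: Col10a1, Col22a1, Col28a1, Col4a3, Col4a6, Col6a4, Col6a5, Col6a6 and the 3 chains of type IX, Col9a1, Col9a2 and Col9a3. The highest of the 4 group means lay in TF for 34 genes, in SF for 7, in SE for 2 and in TE for 1. The counts of genes passing in fresh cells only, and of highest means, were not made over all genes. They describe the 44 genes only.

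**Figure D2:**
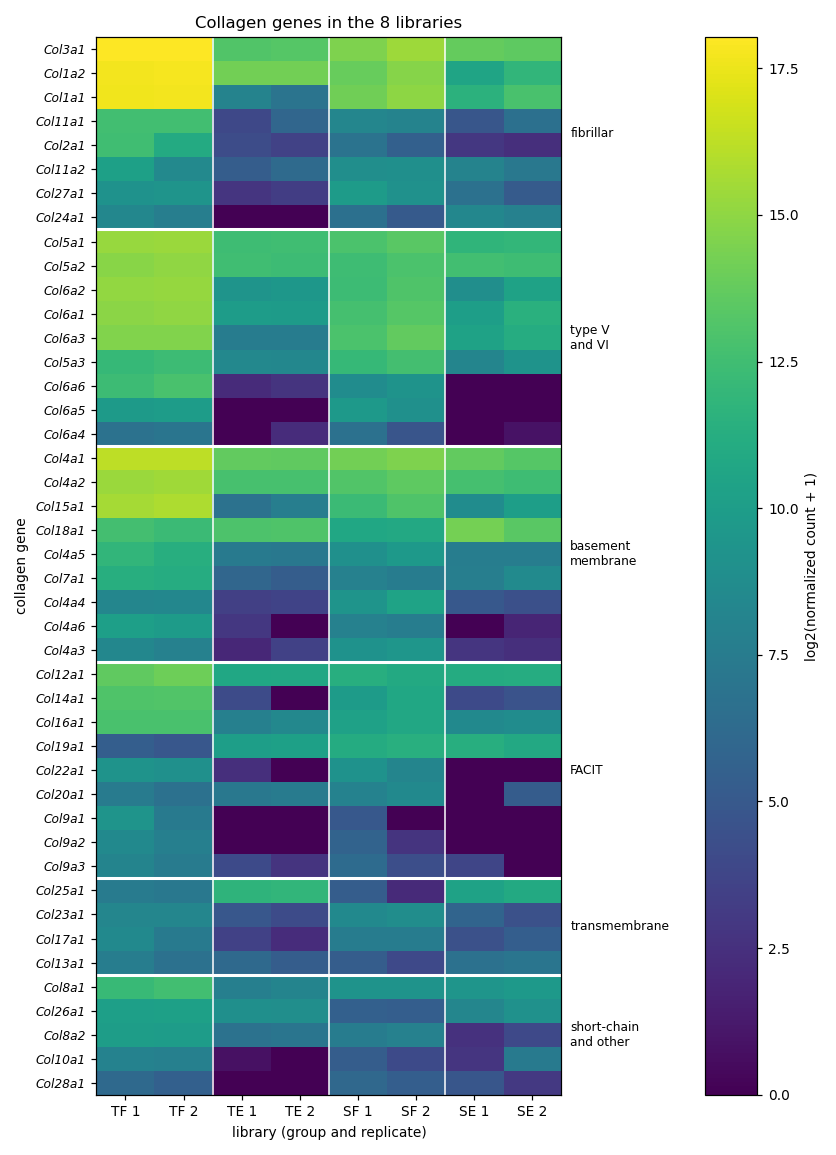
Heat map of log2(normalized count + 1) for the 44 collagen genes (rows, by class) in the 8 libraries (columns). TF is the brightest column pair for most rows, and the dark cells of TE and SE include the genes at 0 counts in both libraries of a group.

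The test used throughout was edgeR's quasi-likelihood test with Benjamini-Hochberg adjustment over the 17582 genes tested, and a gene was called when its adjusted p was below 0.05 and its fold change above the threshold named in the study's methods. Values after a log2 fold change are standard errors. Levels are normalized counts, that is estimated counts divided by median-ratio size factors, which allow a gene to be compared between libraries but not with another gene. Fold values printed without log2 are ratios of group means of these counts. Log2 fold changes come from the edgeR fit with its own scaling, so the 2 can differ, and near no change also in sign. Library totals ran from 11930961 to 21146632 estimated counts, and 3 counts in a library corresponded to 2.15 to 3.89 normalized counts. The TF libraries differed most in markers of other cells, with sums over 6 haematopoietic markers of 6158 in TF 1 and 591 in TF 2, and of 876 and 688 in SF and at most 167 in the expanded libraries. Among the myogenic markers that check the labels, Pax7 lay between 1174 and 4914 normalized counts and Myod1 between 637 and 10701 in the 8 libraries, and Calcr was at 0 in all 4 expanded ones. The labels call the replicates biological and do not say from which cultures or animals they came, so p-values measure the spread between these samples, part of which may be technical.

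In teratoma-derived cells nearly every collagen gene was lower after expansion. 39 of 44 genes were called lower in TE than in TF and 2 higher, where 16.2% of all genes tested were called lower and 9.86% higher. The median log2 fold change over the 44 genes was -4.93, or -4.80 with the 5 genes at 0 in TE placed at their bound, against -0.18 over all genes tested. The genes called lower were all 8 fibrillar, all 9 of types V and VI, 8 of 9 basement membrane, 7 of 9 FACIT, 2 of 4 transmembrane and all 5 short-chain and other genes. Col13a1, Col18a1 and Col20a1 passed in neither direction. Without TF replicate 1, 38 genes were called lower and 2 higher. In satellite cells 28 of 44 genes were called lower in SE than in SF and 5 higher, against 19.8% and 20.9% of all genes tested. The median there was -2.21 against -0.23 over all genes tested, and it was -1.60 for basement membrane genes, -2.02 for fibrillar genes and -2.74 for types V and VI. For FACIT genes it was -3.91, or -2.70 with 3 genes at their bound. It was -0.04 for transmembrane genes, with 2 called higher and 2 lower. Short-chain and other genes had a median of 0.47, with 1 called higher and 1 lower.

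For 26 of the 44 genes the change in culture differed between the origins. The interaction test, which asks whether the change from TF to TE differs from the change from SF to SE, called 25 genes lower (a larger fall, or a smaller rise, in teratoma-derived cells) and 1 gene higher, against 9.62% and 4.7% of all genes tested. The median difference over the 44 genes was -2.73 on the log2 scale, or -2.71 over the 37 genes with counts in every group, against -0.18 over all genes tested. By class the interaction called 6 of 8 fibrillar, 6 of 9 basement membrane, 5 of 9 type V and VI, 3 of 9 FACIT, 1 of 4 transmembrane and 4 of 5 short-chain and other genes lower.

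**Figure D3:**
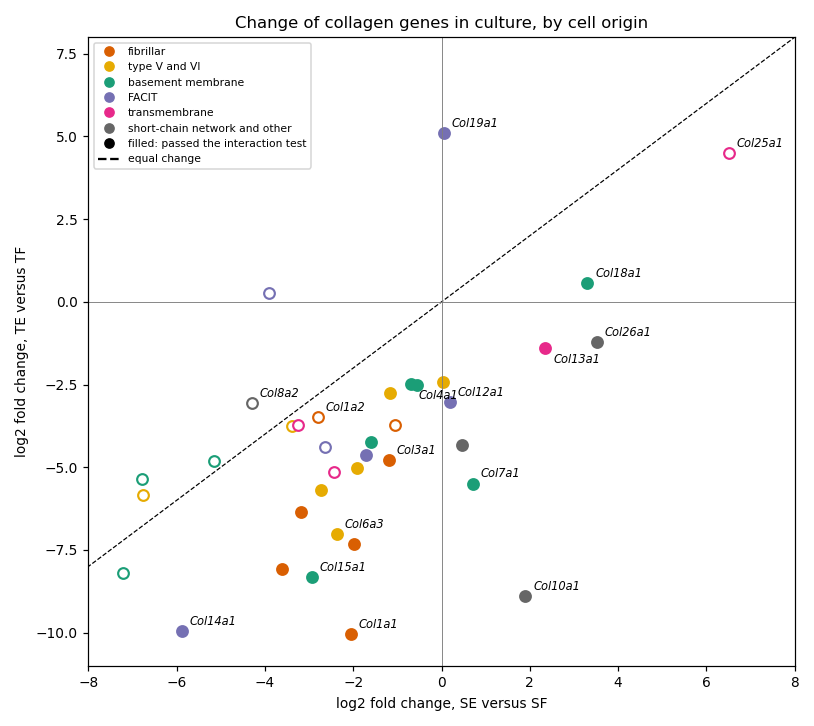
Log2 fold change of 37 collagen genes from SF to SE (horizontal axis) and from TF to TE (vertical axis), coloured by class, with filled points where the interaction test was passed. The 7 genes at 0 counts in both libraries of a group are left out. Most filled points lie below the dashed line of equal change, and Col19a1 lies above it.

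The sequences below are RefSeq promoter windows (GRCm38.p6) of 200 bases, from 250 to 51 bases before the start, for 2 genes that fell in both origins and for the 2 collagen genes called higher in TE than in TF. 35 of the 44 genes had an entry. Capitals mark matches on either strand to 4 short motifs that do not overlap here. CCAAT stood in 28.4% of 32851 RefSeq windows of this length and at 10 of the 35 collagen genes. The TATA box letters TATAAA stood in 9.14% of windows and at 4 collagen genes. Bases nearer to the start than 51 were not searched, so a TATA box there would be missed. The GC box letters GGGCGG stood in 24.6% of windows and at 17 collagen genes. The E-box letters CAGCTG stood in 10.3% of windows and at 5 collagen genes. A collagen gene was counted if any of its windows held the letters, so these counts and the shares of windows are unlike units. A match is a description of the letters and not a bound site.
Col3a1, chr1:45311288-45311487, plus strand: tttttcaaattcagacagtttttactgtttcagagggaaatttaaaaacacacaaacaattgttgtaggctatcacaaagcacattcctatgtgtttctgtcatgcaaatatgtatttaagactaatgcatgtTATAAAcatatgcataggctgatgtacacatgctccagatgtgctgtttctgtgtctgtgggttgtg
Col15a1, chr4:47207762-47207961, plus strand: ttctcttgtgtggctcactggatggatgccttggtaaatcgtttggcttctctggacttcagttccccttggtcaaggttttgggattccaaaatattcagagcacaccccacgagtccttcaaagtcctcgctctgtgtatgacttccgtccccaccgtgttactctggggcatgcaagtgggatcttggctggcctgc
Col19a1, chr1:24587488-24587687, minus strand: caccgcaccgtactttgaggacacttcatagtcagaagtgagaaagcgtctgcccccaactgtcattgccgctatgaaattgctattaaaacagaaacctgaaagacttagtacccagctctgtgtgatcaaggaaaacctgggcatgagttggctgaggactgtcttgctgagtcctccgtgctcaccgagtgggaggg
Col25a1, chr3:130180595-130180794, plus strand: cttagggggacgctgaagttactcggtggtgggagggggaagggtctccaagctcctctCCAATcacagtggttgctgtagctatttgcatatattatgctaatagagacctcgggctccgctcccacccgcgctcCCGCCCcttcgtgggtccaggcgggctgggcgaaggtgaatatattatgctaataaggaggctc
Col3a1 had 1 TATAAA and Col25a1 had 1 CCAAT and, read on the minus strand, 1 GC box, while Col15a1 and Col19a1 had none of the 4. The Col25a1 window lies within the span of the GENCODE gene model, which starts upstream, and outside its exons.

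Fibrillar genes held the largest share of collagen counts in TF and SF. Col1a1 and Col1a2 encode the chains of type I collagen, which as a rule joins 2 alpha-1 chains to 1 alpha-2 chain. Col1a1 (chr11:94936224-94953042, plus strand, GRCm38) stood at 209379 and 213163 normalized counts in TF, 262 and 121 in TE, 17607 and 32545 in SF, and 3052 and 7582 in SE. The 4 groups did not overlap, and TE was the lowest by far. Its mean was 1103-fold lower in TE than in TF (log2 -10.05 ± 0.72, adjusted p = 1.49e-05) and 4.72-fold lower in SE than in SF (log2 -2.05 ± 0.50, adjusted p = 0.00983). The interaction was -8.0 ± 0.78 (adjusted p = 0.000353). Col1a2 (chr6:4504814-4541544, plus strand) stood at 216016 and 223059 in TF, 18965 and 18964 in TE, 14596 and 27251 in SF, and 1455 and 3824 in SE. It fell as well in both origins, 11.6-fold from TF to TE (adjusted p = 0.000700) and 7.93-fold from SF to SE (adjusted p = 0.00124), and its interaction of -0.68 ± 0.62 did not pass (adjusted p = 0.533).

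The partner chains of type I thus parted in TE. On a scale of counts per kilobase of the longest annotated transcript, the ratio of Col1a1 to Col1a2 was 0.868 ± 0.0087 (SD, n = 2) in TF, 1.08 ± 0.00764 in SF and 1.84 ± 0.0733 in SE, but 0.00911 ± 0.00474 in TE, with 0.0125 and 0.00576 in its 2 libraries. Between the expanded groups Col1a1 was lower in TE than in SE (log2 -4.77 ± 0.57, adjusted p = 0.0014) and Col1a2 was higher (log2 2.87 ± 0.47, adjusted p = 0.00647). The ratio of Col4a1 to Col4a2, the chains of the common type IV network, lay between 1.73 and 2.05 in all 8 libraries. The ratio depends on the transcript length taken, and the same length was used for every library.

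Col3a1, the single chain of type III collagen, which accompanies type I in soft tissue, was the collagen gene with the most counts in both TF libraries. Its levels were 267116 and 267864 in TF, 8796 and 9937 in TE, 24038 and 42499 in SF, and 13900 and 11855 in SE. It fell 28.6-fold in teratoma-derived cells (log2 -4.78 ± 0.36) and 2.58-fold in satellite cells (log2 -1.19 ± 0.31, adjusted p = 0.0127). The interaction was -3.60 ± 0.44, and the expanded groups did not pass the test between them (adjusted p = 0.487).

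Col11a1, a chain of type XI collagen, which shares fibrils with type II in cartilage, stood at 6168 and 6230 in TF, 14.2 and 60.9 in TE, 307 and 267 in SF, and 27.2 and 101 in SE. Col2a1, the chain of cartilage collagen, stood at 5842 and 2102 in TF, 17.2 and 10.8 in TE, 113 and 44.5 in SF, and 6.44 and 4.29 in SE. Both were lower in each expanded library than in each fresh library of the same origin, and both passed the interaction test (log2 -5.33 ± 0.87 and -4.45 ± 1.10), Col2a1 not without SE replicate 1 (adjusted p up to 0.0842). Col11a1 was called lower in SE than in SF (adjusted p = 0.0250), but not without SF replicate 1 or when only the 2 groups were fitted (adjusted p up to 0.0789). Their TF levels were 21.6-fold and 50.3-fold those of SF. The 12 cartilage and bone markers summed to 5424 and 5237 normalized counts in TF and 5877 and 5711 in SF. These sums cannot be set against each other as a level of the list. Sox9 alone held 3267 and 3749 of them in TF and 4381 and 4727 in SF. Acan stood at 797 and 474 in TF, 89.2 and 17.1 in SF, and 0 in all 4 expanded libraries. Of the 10 tested, 1 was called higher and 0 lower in TF than in SF, against 15.1% and 9.13% of all genes tested. The part of these markers in the Col2a1 and Col11a1 differences was not tested.

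Col27a1, a fibrillar chain found in cartilage, stood at 584 and 650 in TF, 5.99 and 8.48 in TE, 940 and 548 in SF, and 107 and 35.2 in SE. It was lower in TE than in SE (log2 -3.26 ± 0.58, adjusted p = 0.00941), a call lost when only these 2 groups were fitted (adjusted p = 0.0777). Its interaction call was lost without TE replicate 1 (adjusted p = 0.0527). Col24a1, a minor fibrillar chain known from bone and cornea, was counted 0 times in both TE libraries and stood at 330 and 205 in TF, 101 and 34.2 in SF, and 330 and 237 in SE. It was the one fibrillar gene called higher in SE than in SF (log2 2.28 ± 0.59, adjusted p = 0.0148). With 3 counts a library as the floor, it was at least 117-fold lower in TE than in TF and at least 124-fold lower than in SE. Col11a2 was called lower in TE than in TF (13.8-fold) and passed neither the interaction (adjusted p = 0.0512) nor the comparison of SE with SF (adjusted p = 0.145).

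All 9 genes of types V and VI were called lower in TE than in TF, and 8 of 9 lower in SE than in SF. Over all genes tested these shares were 16.2% and 19.8%. Col5a1 and Col5a2 encode the main chains of type V. Col5a1 stood at 38420 and 41527 in TF, 5611 and 5733 in TE, 7948 and 11143 in SF, and 3614 and 3847 in SE. It fell in both origins (log2 -2.76 ± 0.23 and -1.17 ± 0.22) and by more in teratoma-derived cells (adjusted p = 0.00924), an interaction call lost without TE replicate 1 or without TE replicate 2 (adjusted p up to 0.0704). Col5a2 stood at 29285 and 33554 in TF, 5822 and 5369 in TE, 5431 and 7656 in SF, and 6180 and 5560 in SE. It fell 5.62-fold in teratoma-derived cells, while in satellite cells the 2 groups overlapped (log2 0.03 ± 0.22, adjusted p = 0.924).

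The chains of type VI, which combine one by one into the same filament, did not keep their proportions. Col6a1 stood at 31000 and 33926 in TF, 983 and 934 in TE, 6584 and 9834 in SF, and 1082 and 2745 in SE. Col6a2 stood at 35941 and 37930 in TF, 631 and 739 in TE, 5253 and 8677 in SF, and 486 and 1349 in SE. Col6a3, the largest of the chains, stood at 24863 and 25349 in TF, 189 and 186 in TE, 7798 and 13579 in SF, and 1355 and 2304 in SE. All 3 chains were lower in every TE than in every TF library, and Col6a3 fell the most, 134-fold against 33.9-fold for Col6a1 and 53.9-fold for Col6a2. Per kilobase, the ratio of Col6a3 to Col6a1 was 0.314 ± 0.0157 (SD, n = 2) in TF and 0.0793 ± 0.00198 in TE, and 0.520 ± 0.0563 in SF and 0.424 ± 0.119 in SE. Col6a3 was the one type VI chain called lower in TE than in SE (log2 -3.27 ± 0.35, adjusted p = 0.000733).

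The other type VI genes, Col6a4, Col6a5 and Col6a6, encode chains that can take the place of that of Col6a3 and lie side by side on chromosome 9, with gaps of 27917 and 28810 bases. Col6a6 stood at 5294 and 7290 in TF, 3.74 and 5.397 in TE, 432 and 614 in SF, and 0 in both SE libraries. It was called higher in TE than in SE (adjusted p = 0.0352), a difference that rests on 3.74 and 5.397 normalized counts and is at least 1.94-fold with 3 counts a library as the floor; the call was lost without TE replicate 2, without SE replicate 1 or without SE replicate 2. Col6a5 was at 0 in all 4 expanded libraries after 915 and 1006 in TF and 837 and 532 in SF, at least 421-fold and at least 290-fold lower. Col6a4 reached at most 130 in any library and was called lower in both expanded groups, in TE not without TF replicate 2 or without TE replicate 1 (adjusted p up to 0.0681). Col5a3, a minor chain of type V, was called lower in both, by 14.1-fold and 11.9-fold.

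In the basement membrane class the common type IV pair fell in teratoma-derived cells and remained well detected in every group. Col4a1 and Col4a2 encode the chains found in every basement membrane and are transcribed away from each other on chromosome 8, where their annotated ends overlap by 22 bases. Col4a1 stood at 76312 and 78381 in TF, 13570 and 12945 in TE, 18628 and 24434 in SF, and 13243 and 10032 in SE. Col4a2 stood at 39908 and 44092 in TF, 6950 and 7073 in TE, 8843 and 12001 in SF, and 6739 and 5639 in SE. In teratoma-derived cells they fell by 5.83-fold and 5.99-fold. In satellite cells Col4a1 was called lower by 1.85-fold (log2 -0.70 ± 0.24, adjusted p = 0.0404), a call lost in 9 of the alternative analyses, and Col4a2 was 1.68-fold lower and did not pass (adjusted p = 0.0685). Without TE replicate 1 or TE replicate 2 the interaction of Col4a1 (-1.79 ± 0.34) was not called (adjusted p up to 0.0631). The expanded groups did not pass the test for either gene, with log2 differences of 0.21 ± 0.24 and 0.20 ± 0.22.

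The other type IV chains, known from the specialised membranes of kidney, lung and smooth muscle, were lower after expansion in both origins. Col4a5 stood at 3817 and 2562 in TF, 174 and 151 in TE, 530 and 854 in SF, and 199 and 202 in SE, and it passed the interaction test (log2 -2.63 ± 0.40). Col4a3, Col4a4 and Col4a6 had at most 11.6 normalized counts in any TE library and at most 30.0 in any SE library. Col4a4 was 1 of the 2 collagen genes called lower in TF than in SF (log2 -1.56 ± 0.40, adjusted p = 0.0200), and this call was lost without TF replicate 1, without TF replicate 2 or without SF replicate 2.

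Col15a1 and Col18a1 encode the multiplexins, basement membrane collagens that carry sugar chains and release antiangiogenic fragments, and they moved apart. Col15a1 stood at 48802 and 58920 in TF, 112 and 211 in TE, 5119 and 8393 in SF, and 426 and 1120 in SE. It fell 333-fold in teratoma-derived cells and 8.74-fold in satellite cells (interaction -5.38 ± 0.68), and it was lower in TE than in SE (log2 -2.23 ± 0.48, adjusted p = 0.0227), though not without TE replicate 1 or when only the 2 groups were fitted (adjusted p up to 0.117). Col18a1 stood at 6453 and 5054 in TF, 8007 and 8386 in TE, 1687 and 1885 in SF, and 19923 and 11059 in SE. It rose 8.67-fold in satellite cells (log2 3.30 ± 0.30, adjusted p = 3.37e-05), and in teratoma-derived cells, where TE was 1.42-fold above TF, it did not pass (adjusted p = 0.153).

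Col7a1, the chain of the anchoring fibrils under epithelia, stood at 2504 and 2254 in TF, 62.2 and 39.3 in TE, 237 and 185 in SF, and 205 and 401 in SE. It fell 46.9-fold in teratoma-derived cells, and SE and SF overlapped (log2 0.72 ± 0.34, adjusted p = 0.113). It was lower in TE than in SE (log2 -2.55 ± 0.36, adjusted p = 0.00304).

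**Figure D4:**
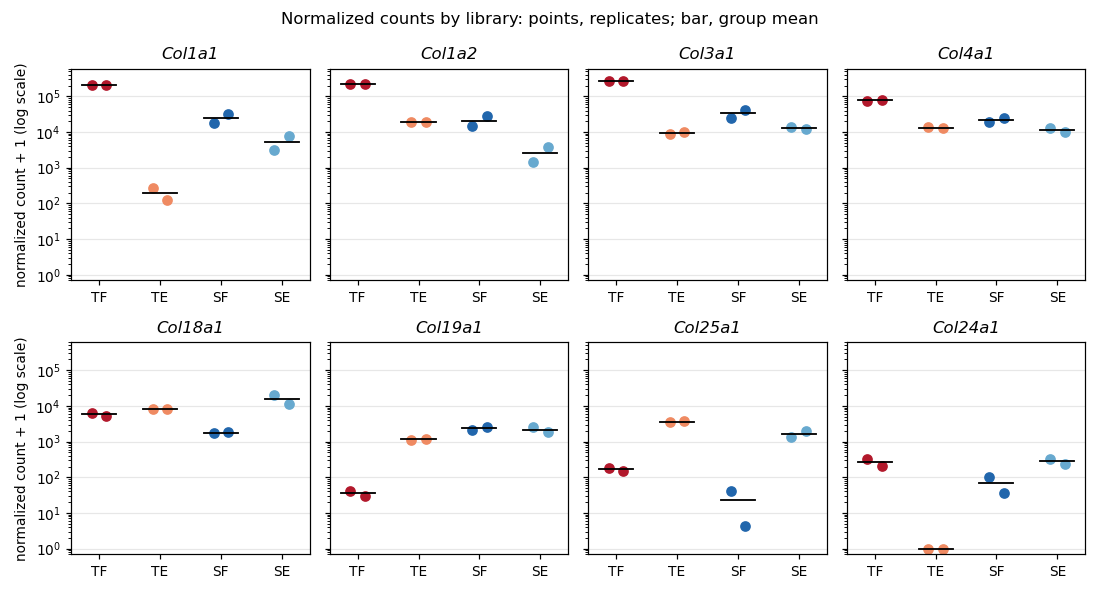
Normalized count + 1 on a log axis for 8 collagen genes, with each library as a point and the group mean as a bar. Col1a1 is far lower in TE than in the other groups while Col1a2 is not, Col18a1 is highest in SE, Col19a1 lowest in TF, Col25a1 high in both expanded groups, and Col24a1 at 0 in TE.

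The FACIT class held the one gene with a larger rise in teratoma-derived cells. Col19a1, a chain of type XIX collagen known from embryonic muscle and basement membrane zones, stood at 40.2 and 28.3 in TF, 1078 and 1210 in TE, 2157 and 2594 in SF, and 2508 and 1849 in SE. TF lay far below the other 3 groups. It rose 33.4-fold from TF to TE (log2 5.11 ± 0.28, adjusted p = 4.38e-06) and in satellite cells the groups overlapped (log2 0.06 ± 0.22, adjusted p = 0.833). The interaction was 5.05 ± 0.36 (adjusted p = 7.09e-05). It was also called lower in TE than in SE (log2 -0.91 ± 0.22, adjusted p = 0.0395), a call lost in 8 of the alternative analyses.

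Col12a1, Col14a1 and Col16a1 encode chains that decorate type I fibrils or lie near them. Col12a1 stood at 12833 and 16767 in TF, 1695 and 1822 in TE, 2476 and 2006 in SF, and 2208 and 2253 in SE. It fell 8.42-fold in teratoma-derived cells and did not pass in satellite cells (log2 0.19 ± 0.20, adjusted p = 0.463). Col14a1 stood at 8538 and 8976 in TF, 16.5 and 0 in TE, 953 and 1713 in SF, and 15.7 and 24.0 in SE. It fell in both origins, 1063-fold and 67.04-fold, the first ratio resting on 1 TE library with counts, and its interaction call (adjusted p = 0.0228) was not made by DESeq2. Col16a1 stood at 7532 and 7355 in TF, 235 and 342 in TE, 1283 and 1761 in SF, and 385 and 434 in SE, with an interaction of -2.93 ± 0.34.

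The type IX chains, which cover cartilage fibrils, had their highest levels in TF. Col9a1 stood at 652 and 167 in TF, 0 in both TE and both SE libraries, and 30.6 and 0 in SF. Col9a2 was also at 0 in all 4 expanded libraries, and the calls of both as higher in TF than in SF were lost under other scalings. Col9a1 lies 9205 bases from Col19a1 on chromosome 1, on the other strand, and the neighbours moved in opposite directions from TF to TE. Col22a1, known from tissue junctions of muscle and tendon, was called lower in both expanded groups, at least 184-fold in SE. Col20a1 was called lower in SE than in SF (17.0-fold), but not without SF replicate 2 or when only the 2 groups were fitted (adjusted p up to 0.0707).

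Of the transmembrane genes, 1 rose in both origins. Col25a1, whose protein is known to be needed in muscle for the entry of motor axons, stood at 183 and 148 in TF, 3444 and 3723 in TE, 39.5 and 3.42 in SF, and 1354 and 1970 in SE. Every expanded library lay above every fresh one. It rose 21.7-fold in teratoma-derived cells (log2 4.49 ± 0.53, adjusted p = 0.000267) and 77.5-fold in satellite cells (log2 6.51 ± 0.62, adjusted p = 4.73e-05). The difference between these rises did not pass (log2 -2.02 ± 0.75, adjusted p = 0.109).

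Col13a1, a transmembrane collagen of cell adhesions and the neuromuscular junction, stood at 195 and 103 in TF, 70.4 and 38.5 in TE, 38.2 and 14.8 in SF, and 107 and 130 in SE. It rose in satellite cells (log2 2.35 ± 0.71, adjusted p = 0.0243) and did not pass in teratoma-derived cells (log2 -1.39 ± 0.67, adjusted p = 0.155), and the interaction was called (adjusted p = 0.0317). The interaction call was lost without TF replicate 1, TE replicate 1, TE replicate 2 or SF replicate 2 (adjusted p up to 0.105), and the rise in satellite cells without SF replicate 2 or SE replicate 2 (adjusted p up to 0.101). Col17a1, of the hemidesmosomes of epithelia, stood at 371 and 166 in TF, 10.48 and 3.85 in TE, 186 and 192 in SF, and 20.7 and 40.3 in SE. Col23a1 stood at 312 and 303 in TF, 28.5 and 16.2 in TE, 372 and 466 in SF, and 55.1 and 21.5 in SE. Both fell in each origin, Col17a1 in satellite cells not without SE replicate 1 (adjusted p up to 0.0645). The 6 epithelial markers summed to 5739 and 1892 in TF, 7 to 12 in TE, 276 and 30 in SF and 16 to 32 in SE, and Col17a1 was the higher in TF 1. The part of such cells in the Col17a1 and Col7a1 values was not tested.

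In the last class, Col8a1 and Col8a2 encode the chains of type VIII, a short-chain collagen of vessels and of the cornea, and they parted after expansion. Col8a1 stood at 4527 and 6112 in TF, 222 and 284 in TE, 620 and 604 in SF, and 661 and 821 in SE. Col8a2 stood at 1048 and 1003 in TF, 111 and 126 in TE, 192 and 239 in SF, and 5.01 and 14.6 in SE. In TE both were below TF, and in SE only Col8a2 was called below SF (22.0-fold). TE was lower than SE for Col8a1 (log2 -1.53 ± 0.23, adjusted p = 0.00387) and higher for Col8a2 (log2 3.63 ± 0.45, adjusted p = 0.00159).

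Col26a1, a little-studied secreted chain, stood at 1163 and 1219 in TF, 500 and 484 in TE, 45.9 and 41.1 in SF, and 312 and 557 in SE. It rose 9.996-fold in satellite cells (log2 3.51 ± 0.33) and fell 2.42-fold in teratoma-derived cells (log2 -1.22 ± 0.29, adjusted p = 0.0120), so that the interaction was -4.73 ± 0.44. The fall in teratoma-derived cells was not called without TF replicate 2, TE replicate 1 or TE replicate 2 (adjusted p up to 0.0844). Col10a1, the collagen of hypertrophic cartilage, stood at 256 and 235 in TF, 0.749 and 0 in TE, 38.2 and 16.0 in SF, and 5.72 and 170 in SE. Its replicates in SE differed the most, and the call of TE below SE (adjusted p = 0.0325) was lost without SE replicate 2, without TE replicate 1 or without TE replicate 2. Col28a1 was at 0 in both TE libraries and at 71.4 and 44.3 in TF, 68.8 and 41.1 in SF, and 27.9 and 6.87 in SE. It was called lower in TE than in SE with an adjusted p of 0.0471, a call lost in 9 of the alternative analyses.

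Between the fresh groups 29 of 44 collagen genes were called higher in TF than in SF and 2 lower, against 15.1% and 9.13% of all genes tested. The median log2 fold change was 2.41 against 0.08 over all genes tested. By class 6 of 8 fibrillar, 7 of 9 basement membrane, 6 of 9 type V and VI, 5 of 9 FACIT, 2 of 4 transmembrane and 3 of 5 short-chain and other genes were called higher. Type I and III genes were 8.43-fold (Col1a1), 10.49-fold (Col1a2) and 8.04-fold (Col3a1) higher in TF, and Col4a1 and Col4a2 3.59-fold and 4.03-fold. Col19a1 was 69.3-fold lower in TF (log2 -5.96 ± 0.29).

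Between the expanded groups 10 of 44 genes were called lower in TE than in SE and 3 higher, against 4.07% and 3.15% of all genes tested. The median log2 fold change was -0.40, or -0.46 with 3 genes at their bound and without the 4 genes at or under the floor in both groups, against 0.00 over all genes tested. Those lower were Col1a1, Col6a3, Col7a1, Col8a1, Col10a1, Col15a1, Col19a1, Col24a1, Col27a1 and Col28a1, and those higher were Col1a2, Col6a6 and Col8a2. For 31 genes the test was not passed in either direction. These comparisons share libraries with those of fresh and expanded cells, so the calls are not independent of each other.

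Most markers of fibroblasts, endothelial cells and tendon were called lower after expansion in both origins. Over all genes tested, 16.2% were called lower and 9.86% higher in TE than in TF. From SF to SE these shares were 19.8% and 20.9%. The 12 markers of fibro-adipogenic progenitors and fibroblasts, the main collagen-producing cells of muscle, summed to 53842 and 54343 normalized counts in TF, 1324 and 1207 in TE, 70722 and 127447 in SF, and 2777 and 3257 in SE. All 12 were called lower in TE than in TF and 9 of 12 lower in SE than in SF. Dcn and Lum of this list also count among collagen-binding genes. Pdgfra, the receptor that defines these cells, stood at 4158 and 4320 in TF, 8.99 and 3.08 in TE, 1438 and 2115 in SF, and 40.1 and 21.5 in SE, and Lum was at 0 in 1 TE and both SE libraries. Between the fresh groups 4 of the 12 were called higher in TF and 1 lower, against 15.1% and 9.13% of all genes tested. The sums of the fresh groups cannot be set against each other as a level of the list, since the actin-binding protein gene Gsn alone held 48017 and 89353 of the SF sums, against 13732 and 13908 in TF. The 6 endothelial markers summed to 4200 and 1349 in TF, 53.2 and 96.4 in TE, 5186 and 6421 in SF, and 61.5 and 78.9 in SE, and all 6 were called lower in both expanded groups. The 7 tendon markers summed to 8640 and 8564 in TF, 1244 and 1133 in TE, 9771 and 10692 in SF, and 595 and 649 in SE, with 6 called lower and 1 higher in both. The part of any such cells in the collagen levels was not tested, and in bulk RNA fewer cells of a type cannot be told apart from less RNA per cell. Of the 10 myogenic markers 4 were called higher and 5 lower in TE than in TF, against 9.86% and 16.2% of all genes tested. The sum of the 10 markers lay between 24696 and 52929 in all 8 libraries. These sums, too, cannot be set against each other as a level of the list. Des alone held 6244 and 5494 of them in TF, 15094 and 15564 in TE, 12218 and 15251 in SF, and 20934 and 27712 in SE.

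The collagen-processing genes, 56 genes in 5 roles chosen from textbook knowledge, were tested for 53 genes. In teratoma-derived cells 32 of 53 were called lower and 2 higher after expansion, where 16.2% and 9.86% of all genes tested were. In satellite cells 17 were called lower and 15 higher, where 19.8% and 20.9% of all genes tested were. The interaction called 26 lower and 1 higher, against 9.62% and 4.7%. Between the expanded groups 6 were called lower and 1 higher in TE, against 4.07% and 3.15%. Modifying enzymes add hydroxyl groups and sugars to the new chains. Of these 15 genes 8 were called lower and none higher in TE, and 2 lower and 7 higher in SE. The shares of all genes tested were 16.2% lower and 9.86% higher in TE, and 19.8% lower and 20.9% higher in SE. Folding and export genes, 10 in number, had 4 lower and 1 higher in TE, and none lower and 4 higher in SE.

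**Figure D5:**
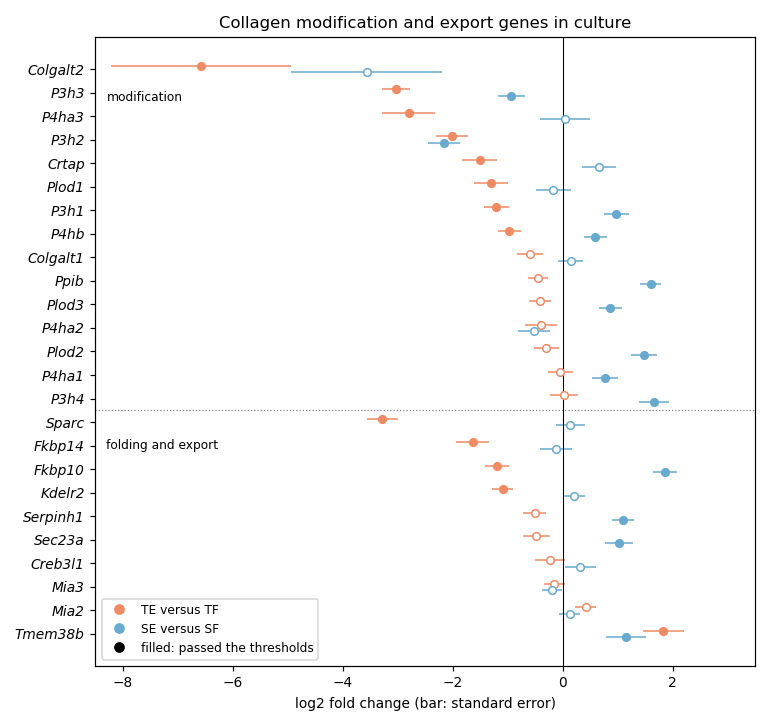
Log2 fold change with standard error of 15 modification and 10 folding and export genes from TF to TE (orange) and from SF to SE (blue), filled where called. Most orange points lie at or below 0, while 7 modification and 4 export genes have filled blue points above 0.

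Serpinh1, the chaperone Hsp47 that binds the collagen triple helix, stood at 15946 and 18062 in TF, 11409 and 11552 in TE, 4527 and 5374 in SF, and 10331 and 8252 in SE. It rose in satellite cells (log2 1.10 ± 0.21, adjusted p = 0.00238) and did not pass in teratoma-derived cells (log2 -0.51 ± 0.20, adjusted p = 0.0942). Plod2, the lysyl hydroxylase of telopeptides, had the same pattern of calls (log2 1.48 ± 0.23 in satellite cells and -0.30 ± 0.23 in teratoma-derived cells). P4ha1, a catalytic subunit of prolyl 4-hydroxylase, was called higher in SE than in SF (log2 0.77 ± 0.23, adjusted p = 0.0240) and its value in teratoma-derived cells was -0.04 ± 0.23. Ppib, cyclophilin B, rose in satellite cells (log2 1.60 ± 0.19) with an interaction of -2.05 ± 0.26. P3h3, a prolyl 3-hydroxylase, fell in both (log2 -3.03 ± 0.26 and -0.93 ± 0.24). Of the export group, Sparc, a collagen-binding matricellular protein, fell from 55503 and 59271 in TF to 5589 and 5792 in TE, and stood at 10837 and 16222 in SF and 15331 and 10858 in SE, with an interaction of -3.42 ± 0.38. Fkbp10, a foldase of the endoplasmic reticulum, fell in teratoma-derived cells (log2 -1.19 ± 0.21) and rose in satellite cells (log2 1.86 ± 0.22).

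The remaining roles lie outside the cell. Of the propeptide-removing group, Adamts2, which cuts the amino-terminal end of procollagens, fell in both (log2 -4.71 ± 0.22 and -2.67 ± 0.20), as did Bmp1, which cuts the other end (log2 -2.196 ± 0.19 and -1.86 ± 0.19). Adamts14, of the same group, went the other way. Its levels were 231 and 286 in TF, 857 and 898 in TE, 347 and 141 in SF, and 1583 and 960 in SE. Of the 8 genes tested in this group 5 were called lower and 1 higher in TE, against 16.2% and 9.86% of all genes tested. In SE 4 were called lower and 1 higher, against 19.8% and 20.9%. The cross-linking enzyme Lox stood at 6760 and 7293 in TF, 135 and 199 in TE, 1707 and 2390 in SF, and 339 and 808 in SE, and it fell by more in teratoma-derived cells (interaction -3.69 ± 0.54). Loxl2 fell in both (log2 -2.84 ± 0.21 and -2.32 ± 0.21), with an interaction of -0.52 ± 0.28 that did not pass (adjusted p = 0.265), and Loxl1 fell in teratoma-derived cells (log2 -2.94 ± 0.23). Of the collagen-binding group 11 of 15 were called lower in TE and 9 of 15 in SE, against 16.2% and 19.8% of all genes tested. In TE 0 were called higher and in SE 2, against 9.86% and 20.9%. Dcn, decorin, stood at 13515 and 12229 in TF, 57.7 and 18.5 in TE, 9758 and 16120 in SF, and 0 and 14.6 in SE. The collagen receptor Ddr2 stood at 2556 and 2647 in TF, 2251 and 2125 in TE, 4145 and 5316 in SF, and 2102 and 1719 in SE, and was called lower in SE than in SF (log2 -1.12 ± 0.20). Ddr1, of the same group, stood at 1970 and 2090 in TF, 1798 and 2200 in TE, 1055 and 1217 in SF, and 3519 and 3604 in SE. Its mean was 3.14-fold higher in SE than in SF. Lum, lumican, which also binds fibrils, fell to 5.99 and 0 in TE and to 0 in both SE libraries.

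The genes outside the family whose levels most resembled Col1a1 over the 8 libraries, by Pearson's r of log2 normalized counts among 12637 genes, were Ssc5d (r = 0.992), Tcf4, Rtp4, Dnm1 and Igfbp7 (r = 0.982). For Col4a1 they were Ppp1r9b (r = 0.997), Fstl1, Tmem176b, Tbc1d9b and Arap1 (r = 0.987). The 8 points fall into 4 groups and share library depth, so r describes likeness of pattern only.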

How the data were processed

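The authors deposited 1 table of estimated counts per gene for the 8 libraries (24980 gene symbols, not normalized), made from stranded total RNA libraries. The submitters' processing notes name CASAVA, kallisto 0.44.0 and the builds GRCm38 and mm10, with no role or order, and the counting annotation is not given in the sources used here. Estimated counts share reads between transcripts by likelihood, so genes with alike or overlapping sequence are less certain, and between 74.4% and 84.4% of the values per library were whole numbers. The ribosomal RNA precursor Rn45s held 7.99% to 21.3% of counts.

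Counts were rounded and tested with edgeR 4.0.16 (filterByExpr, TMM scaling, quasi-likelihood fit) in R 4.3.3, in 1 fit over the 4 groups with no block. 17582 genes were kept, and a call needed an adjusted p below 0.05 and a fold above 1.25, the thresholds named in the study's methods. The contrasts were TE versus TF, SE versus SF, TF versus SF, TE versus SE and the interaction. DESeq2 1.42.0 size factors gave normalized counts and DESeq2 served as an alternative. Folds against a group at 0 counts are bounds with 3 counts per library in its place. The scripts were tested on simulated data. Ratios between chains used the longest GENCODE transcript. The median transcript length had been planned, but it fell on short annotated fragments for Col4a1 (1170 of 6615 bases), Col1a2 (3099 of 5348 bases) and Col3a1, and its values are given with the alternatives. Coordinates and lengths are from GENCODE on GRCm38.

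Genes named with values were, in each class, the 4 with the highest mean and those called in the interaction or in TE versus SE. Other members are named where a call or a level singles them out, chosen after their values were seen. Processing genes were the 2 with the smallest adjusted p in each role plus 5 named ones. Adamts14 and Ddr1 were added after their values were seen. The collagen genes, the gene lists and the tests were chosen with earlier results of these data known.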

Additional observations from a re-analysis of the deposited data

Results flagged for a closer look

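The interaction test of edgeR found that the change in culture differed between teratoma-derived and satellite cells for 26 collagen genes. Differences are given as the log2 change from TF to TE minus that from SF to SE. The fibrillar genes were Col1a1 (-8), Col11a1 (-5.33), Col2a1 (-4.45), Col3a1 (-3.6) and Col27a1 (-3.16), together with Col24a1, which was at 0 in TE and is given by its adjusted p of 0.000517. The type V and VI genes were Col6a3 (-4.65), Col6a1 (-3.11), Col6a2 (-2.96), Col5a2 (-2.46) and Col5a1 (-1.59). The basement membrane genes were Col7a1 (-6.21), Col15a1 (-5.38), Col18a1 (-2.74), Col4a5 (-2.63), Col4a2 (-1.96) and Col4a1 (-1.79).

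The FACIT genes were Col14a1 (-4.08), Col12a1 (-3.21), Col16a1 (-2.93) and Col19a1, the one gene with a positive difference (5.05). The others were the transmembrane Col13a1 (-3.75) and, in the last class, Col10a1 (-10.8), Col8a1 (-4.81), Col26a1 (-4.73) and Col28a1, at 0 in TE and given by its adjusted p of 0.0489. The value of Col10a1 rests on 1 estimated count in the TE libraries together, on 8 and 198 in SE, and ran from -12.89 to -6.891 over the alternatives. Adjusted p ranged from 6.32e-05 for Col8a1 to 0.0489 for Col28a1. Col24a1 and Col26a1 were called lower in TE than in TF and higher in SE than in SF. The call of Col28a1 was lost in 11 of the alternative analyses, that of Col13a1 in 4, those of Col4a1 and Col5a1 in 2 each, and those of Col2a1, Col14a1 and Col27a1 in 1 each. With 2 libraries a group no test for a library far from its group was made.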

How the results depend on the processing

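No called value of a collagen gene changed its direction under any alternative, and between 179 and 648 gene values per comparison stayed on the same side of the thresholds, while 8 (TE versus TF), 16 (SE versus SF), 27 (TF versus SF), 26 (TE versus SE) and 22 (interaction) did not. Collagen genes higher in TE than in SE numbered 7 with no filter on low counts, and those lower numbered 5 when only the 2 groups were fitted. Higher in the interaction were 2 with no filter and 2 by DESeq2. Leaving out 1 library gave 1 to 2 genes lower in TF than in SF (1 without TF replicate 1, without TF replicate 2 or without SF replicate 2), 2 to 5 higher in TE than in SE (5 without either SF replicate) and 1 to 3 higher in the interaction (2 without SE replicate 1, 3 without SE replicate 2).

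For the processing genes, those lower in TF than in SF numbered 4 with no filter, 0 by glmTreat and 4 with only the 2 groups fitted (0 to 4 leaving out a library). Those higher in TE than in SE, 1 in the report, numbered 5 with no filter, 2 by DESeq2 and 0 with only the 2 groups (1 to 5), and those lower, 6 in the report, numbered 12 by DESeq2 and 2 with only the 2 groups (1 to 7). Those higher in the interaction numbered 3 with median-ratio size factors, 2 without Rn45s, 4 with no filter, 2 by DESeq2 and 2 with the replicate block (0 to 4). The causes were not tested.

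Without Rn45s the collagen shares were 8.14% (TF), 0.679% (TE), 1.24% (SF) and 0.643% (SE). With the median transcript length, the ratio of Col1a1 to Col1a2 was 0.503 in TF, 0.00528 in TE, 0.627 in SF and 1.07 in SE, of Col4a1 to Col4a2 10.2, 10.4, 11.4 and 10.3 in TF, TE, SF and SE, of Col6a1 to Col6a2 0.921, 1.252 and 2.24 in TF, SF and SE, of Col6a3 to Col6a1 0.383, 0.0967 and 0.635 in TF, TE and SF, and of Col5a2 to Col5a1 0.560, 0.704, 0.489 and 1.13, the length being the one thing that changed. Under median-ratio size factors the median of all genes moved by -0.194 (SE versus SF), -0.159 (TF versus SF) and 0.139 (interaction), with the numbers of collagen genes called within 1.5 times of the main ones. Over all genes the interaction split of 826 higher and 1691 lower became 1538 and 1966 by DESeq2.

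Correlations over genes between the replicate deviations of the groups ran from -0.0263 to 0.0757. Each group gives 1 such deviation, so they cannot tell whether libraries of the same number share a culture, animal or batch. Except in the fit with the replicate block, the numbers were used as names only. The fit with the replicate block called 2 higher and 39 lower (TE versus TF), 5 and 28 (SE versus SF), 29 and 2 (TF versus SF), 3 and 8 (TE versus SE) and 1 and 24 (interaction). The interaction has no fit with only 2 groups. The least certain calls are those of low genes, where 3 counts equal 2.15 to 3.89 normalized counts.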
